A study of Mus musculus with 2 samples.

Results

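The 7 genes Lrat, Rdh10, Aldh1a1, Aldh1a2, Rarb, Plin2 and Dgat1 were followed as a set of retinoid and lipid-droplet genes of hepatic stellate cells. They were taken by symbol, and all 7 occur once among the 32285 genes of the count matrices. Liver non-parenchymal cells, which are the liver cells other than hepatocytes, had been profiled by droplet single-cell RNA sequencing. Both groups of mice received carbon tetrachloride (CCl4), a hepatotoxin used to induce liver fibrosis, by injection into the peritoneal cavity for 8 weeks. One group was Mfap2+/+ (wild type, 1 library) and the other Mfap2-/- (knockout, 1 library). The Mfap2 protein, a glycoprotein, is a component of microfibrils in the matrix. The labels give neither the age or sex of the mice, nor how many animals were used per library, nor how the allele was made, and every mouse had received CCl4. With 1 library per genotype there is no replicate check and no test between genotypes, and the intervals below cover counting error only.

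Stellate cells are the main vitamin A store of the body and hold it as retinyl esters in lipid droplets, which they lose when they turn into collagen-producing myofibroblasts. LRAT forms the retinyl esters. RDH10 oxidises retinol to retinaldehyde, and ALDH1A1 and ALDH1A2 oxidise retinaldehyde to retinoic acid, the ligand of the nuclear receptor RARB. PLIN2 coats lipid droplets, and DGAT1 catalyses the last step of triglyceride synthesis and can also esterify retinol.

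Promoter windows from RefSeq on GRCm38.p6 were matched for 5 of the 7 genes, all but Rdh10 and Dgat1. Rarb is a textbook target of retinoic acid, so its window was searched for a direct repeat of half-sites with 5 bases between them, on both strands. The half-site could be AGGTCA, the consensus form, or AGTTCA, a close form, or GGGTCA, a further one, or GGTTCA, the last form allowed. One such repeat lies in the Rarb window, from base -53 to base -37 relative to the RefSeq start. It is shown in capitals, because it is the element through which retinoic acid receptors are known to act on this gene. The same rule found a match in 32 of 32851 promoter windows of 300 bases (0.0974%). In the Lrat window the capitals mark a TATAA sequence from base -29 to base -25, which 24.9% of the windows hold on either strand. The stretches printed are chr14:16575506-16575535 (minus strand) for Rarb and chr3:82903975-82904224 (minus strand) for Lrat.
Rarb: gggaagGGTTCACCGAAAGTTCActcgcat
Lrat: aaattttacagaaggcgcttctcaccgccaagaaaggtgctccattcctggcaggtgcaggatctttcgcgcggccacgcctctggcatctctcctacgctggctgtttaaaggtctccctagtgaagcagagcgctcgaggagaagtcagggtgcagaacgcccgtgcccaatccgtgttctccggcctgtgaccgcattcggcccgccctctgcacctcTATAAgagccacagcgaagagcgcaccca
The Rarb stretch lies within the longer span that GENCODE gives the gene, and an annotated Rarb exon overlaps it. The transcript of that exon was not looked up. No annotated exon lies in the Lrat stretch. A matched sequence is a description and not a measured binding site, and no binding data were analysed.

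The genes lie apart in the genome (GENCODE M21, GRCm38) and differ in length. Rarb spans 388 kb on chromosome 14 (16430839 to 16819156), Aldh1a1 151 kb on chromosome 19 (20492715 to 20643465) and Aldh1a2 80.5 kb on chromosome 9 (71215789 to 71296243). Rdh10 spans 28.0 kb on chromosome 1 (16105774 to 16133734), Plin2 21.7 kb on chromosome 4 (86648386 to 86670060), Lrat 11.4 kb on chromosome 3 (82892579 to 82903973) and Dgat1 9.94 kb on chromosome 15 (76502015 to 76511953). Opposite-strand genes overlap Rarb (Top2b and Gm48162), Lrat (Rbm46os), Aldh1a1 (C730002L08Rik and Gm6684) and Aldh1a2 (Gm48124). Of the 4 of these genes in the matrices, Top2b had the most counts in stellate-like cells, with 185 wild-type and 298 knockout UMIs, and Rbm46os had 24 and 49. Whether the counting used strand is not given in the sources used here, so reads of these pairs may not be separated.

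The wild-type library held 11783 cell barcodes and 82499307 UMIs (unique molecular identifiers, tags of single RNA molecules), with a median of 4685 per barcode. The knockout library was deeper, with 12872 barcodes, 118226367 UMIs and a median of 6511. After filtering and removal of likely doublets 10336 and 11428 cells were kept, and 40 barcode sequences occurred in both libraries, 1 of them among the stellate-like cells of each. Cells were assigned to classes from marker genes that included none of the 7. Mfap2 itself, as a check of the labels, had 211 UMIs in the wild-type cells and 2 in the knockout cells. In stellate-like cells it had 135 UMIs against 0, which is at least 47.9-fold lower when the knockout count is set to a floor of 3 over the class.

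The stellate-like class held 197 wild-type cells (1.91% of cells, Clopper-Pearson interval 1.65 to 2.19) and 189 knockout cells (1.65%, 1.43 to 1.90). Their median depths were close, at 12251 and 12730 UMIs. All 22 stellate markers had UMIs in both libraries, with summed levels of 30000 and 22837 UMIs per 1000000 UMIs of the class (CPM), among them Reln at 1527 and 1773 CPM and Dcn at 10538 and 5790. Most markers of other classes had some UMIs in these cells too. The 10 monocyte-derived macrophage markers summed to 1369 and 1329 CPM, none of them at 0, and the 11 hepatocyte markers to 92.7 and 195 CPM, with Cps1 and Cyp3a11 at 0 in the wild-type class. Portal fibroblast markers summed to 395 and 509 CPM, with Mfap5 at 0 in both. The part of these other transcripts in the levels below was not tested.

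Lrat was the most restricted of the 7 to the stellate lineage. In stellate-like cells it stood at 509 CPM in the wild type (interval 481 to 538) and 426 CPM in the knockout (401 to 452). The portal fibroblast-like cells, only 25 and 22 in number, came next at 83.6 and 228 CPM. Smooth muscle-like cells, 12 and 24 in number, had 9.06 and 166 CPM. B-like cells, which should not express Lrat and serve here as a measure of free RNA, had 1.75 and 2.97 CPM. Stellate-like cells were 1.91% and 1.65% of cells but carried 84.4% of all wild-type and 71.4% of all knockout Lrat UMIs.

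Rdh10, which feeds retinoic acid synthesis, was also highest in stellate-like cells, at 128 CPM (114 to 143) in the wild type and 150 CPM (135 to 166) in the knockout. Portal fibroblast-like cells followed at 71.6 and 123 CPM, and in the knockout their interval (up to 165) overlapped that of stellate-like cells. So did the interval of the 24 knockout smooth muscle-like cells, at 120 CPM (85.3 to 164). The 12 wild-type cells of that class had 0 UMIs. Vascular endothelial-like cells had 32.0 and 38.4 CPM and sinusoidal endothelial-like cells 23.0 and 25.8, against 5.26 and 5.70 in B-like cells.

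The 2 aldehyde dehydrogenases had different distributions. Aldh1a1 was highest in hepatocyte-like cells, at 895 CPM in 42 wild-type cells and 790 CPM in 96 knockout cells. Without the 5 richest cells these values were 506 and 542 CPM. Stellate-like cells had 228 and 287 CPM, and cholangiocyte-like cells, the bile duct epithelium, 141 and 135 CPM. In portal fibroblast-like cells it stood at 213 CPM in the wild type, within the interval of stellate-like cells (209 to 248), and at 562 CPM in the knockout. Smooth muscle-like cells had 99.6 CPM in 12 wild-type and 427 CPM in 24 knockout cells. Sinusoidal endothelial-like cells had 8.65 and 9.66 CPM and B-like cells 4.51 and 7.48.

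Aldh1a2 was sparse throughout, with 196 UMIs in all wild-type and 382 in all knockout cells. Migratory dendritic cells, a class in which this enzyme is known to make retinoic acid, had 44.4 CPM in 35 wild-type and 43.3 CPM in 57 knockout cells. A few cells carried these values, which were 17.8 and 11.5 CPM without the 5 richest cells. Stellate-like cells had 16.6 CPM (40 UMIs) and 23.1 CPM (59 UMIs), or 8.21 and 11.3 CPM without their 5 richest cells, and 38.4 CPM in the wild type with Leiden clusters. The highest wild-type value, 174 CPM in portal fibroblast-like cells, came from 3 of 25 cells, and the knockout cells of that class had 13.7 CPM, or 5 UMIs. Smooth muscle-like cells had 0 UMIs in the wild type and 33.8 CPM, or 11 UMIs, in the knockout.

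Rarb was shared between stellate-like and endothelial cells. It stood at 170 CPM (153 to 187) in wild-type stellate-like cells, followed by vascular endothelial-like cells at 130 CPM (112 to 150) and sinusoidal endothelial-like cells at 104 CPM (94.7 to 114). In the knockout the order was the same, at 267, 145 and 127 CPM, and B-like cells had 4.26 and 5.34. Stellate-like cells carried 26.4% and 20.4% of all Rarb UMIs.

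The droplet genes were not stellate genes by level. Plin2 was highest in monocyte-derived macrophage-like cells, at 1077 CPM in wild-type and 1815 CPM in knockout cells. Kupffer-like cells, the resident macrophages of the liver, had 685 and 1171 CPM, and patrolling monocyte-like cells 534 and 700. Stellate-like cells ranked lower, at 248 CPM (228 to 268) and 204 CPM (187 to 222), and carried 1.95% and 0.770% of all Plin2 UMIs. Even B-like cells, which were used as the low reference for the other genes, had 63.9 and 101 CPM.

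Dgat1 was highest in neutrophil-like cells, at 576 and 783 CPM, then in natural killer or innate lymphoid-like cells, at 471 and 539 CPM, and in T-like cells, at 336 and 308 CPM. Stellate-like cells had 39.1 CPM (94 UMIs) and 47.7 CPM (122 UMIs), below the 66.9 and 73.6 CPM of B-like cells. The 5 retinoid genes thus had higher levels in stellate-like than in B-like cells in both libraries, while Dgat1 had lower ones.

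**Figure D1:**
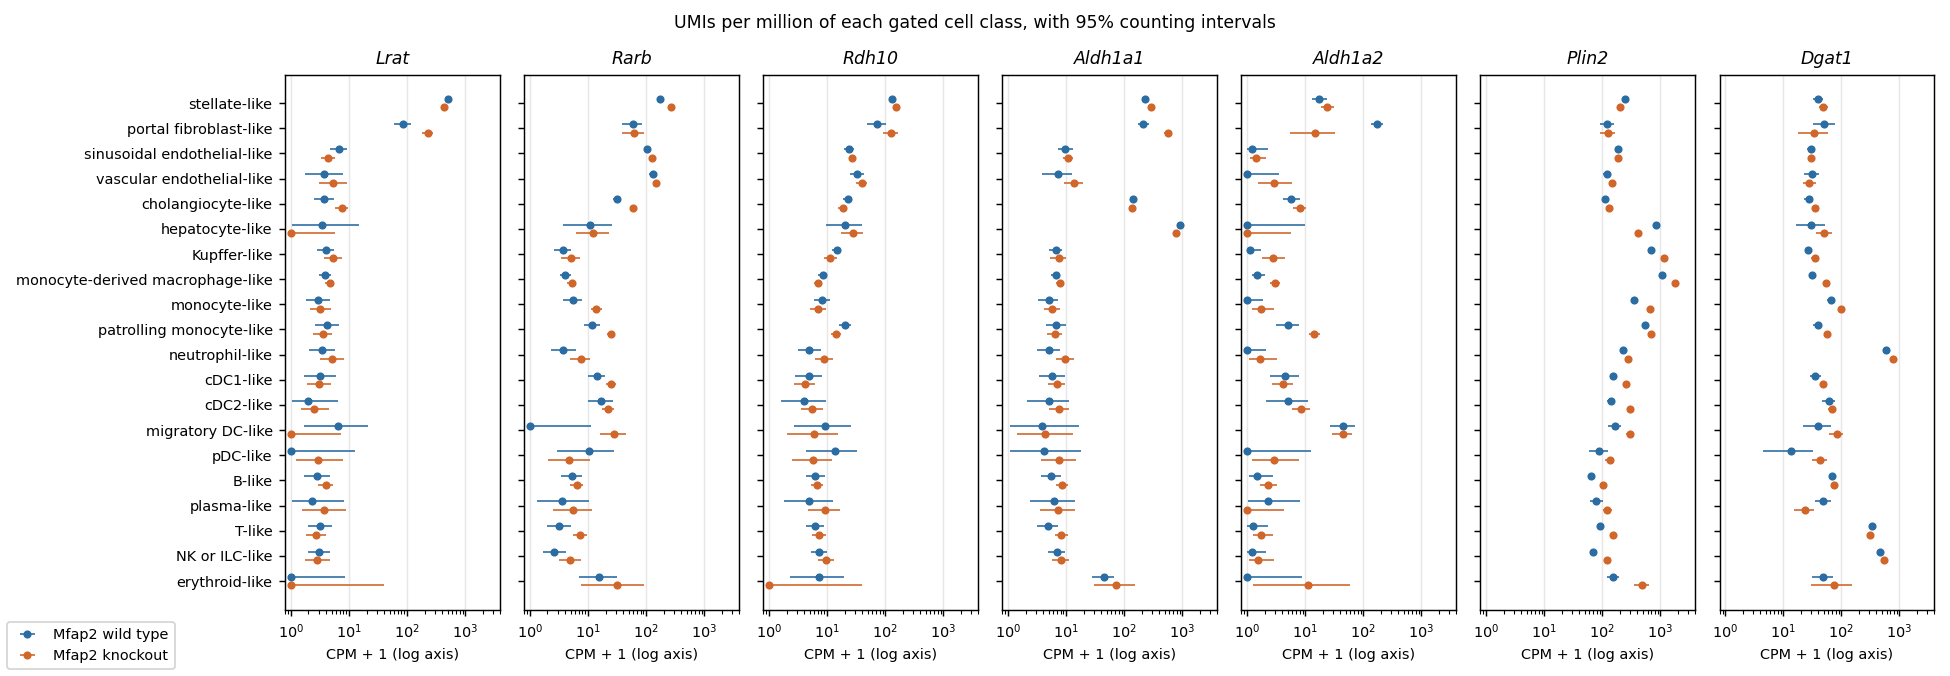
CPM plus 1 (log axis) for each of the 7 genes by cell class with at least 20 cells in each library, as wild type (blue) and knockout (orange) points with 95% Poisson intervals. Lrat stands out in stellate-like cells at 509 and 426 CPM, whereas Plin2 peaks in monocyte-derived macrophage-like cells and Dgat1 in neutrophil-like cells.

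Most stellate-like cells had UMIs of the more abundant members. Lrat was detected in 86.3% of wild-type and 81.5% of knockout stellate-like cells, with a median of 4 and 3 UMIs per cell and a highest value of 41 and 37. With 2000 UMIs drawn at random from every cell, and 22 and 19 shallower stellate-like cells excluded, the shares were 57.7% (50.03 to 65.1) and 47.6% (40.0 to 55.4), against 0.394% and 0.560% of B-like cells. Thinned Rarb shares were 25.1% (18.9 to 32.2) and 38.2% (30.9 to 46.0), against 0.787% and 0.934% of B-like cells. Thinned Plin2 shares were 40.0% and 35.9% of stellate-like cells, against 12.99% and 18.8% of B-like cells. Thinned Dgat1 shares of 6.29% and 8.82% lay below the 11.1% and 12.5% of B-like cells. Sinusoidal endothelial-like cells had 6.34% and 5.42%, so B-like cells are not the floor for this gene, and whether the stellate-like share stands above free RNA was not tested. The median depths behind these shares before thinning were 3444 and 4844 UMIs in B-like cells.

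Many stellate-like cells had UMIs of several of the 7 genes. In the wild type 56 of 197 cells had UMIs of 4 of the genes and 47 had UMIs of 5, while 10 cells had none. In the knockout the corresponding numbers were 46, 52 and 8 of 189 cells. These numbers follow depth and the detection share of each gene, and no expected numbers were set beside them. Spearman correlations of the per-cell shares over the 21 gene pairs had a median of 0.10 over wild-type and 0.05 over knockout cells, with a highest value of 0.30 for Lrat and Plin2 in the knockout. These values are across sparse cells of 1 library that share a denominator, and correlations this weak are not read as a result.

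Between the libraries, the 7 genes differed by less than 2-fold in stellate-like cells, and in different directions. No member passed 2-fold. Of all 11673 genes with at least 20 UMIs in this class, 5.89% were at least 2-fold higher in the knockout and 2.42% at least 2-fold lower (687 and 283 genes). The interval lay above 0 in 26.1% of these genes and below 0 in 14.6%. Of the 7 genes it lay above 0 in 3 and below 0 in 2. The median log2 ratio of knockout over wild type was 0.15 over all genes and 0.28 over the 7. Scaling by the median of ratios moves every value by -0.15 and turns the counts to 445 higher and 504 lower genes.

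Lrat was lower in the knockout, by 1225 against 1091 UMIs, with a log2 ratio of -0.26 (interval -0.37 to -0.14) and of -0.41 relative to the median of ratios. Rarb was higher, by 408 against 684 UMIs, with a log2 ratio of 0.66 (0.48 to 0.84), or 0.50 after that scaling. It ranked at percentile 82.8 of the genes measured in the class. The vitamin A ester-forming enzyme and the retinoic acid receptor therefore lay on opposite sides of the all-gene median.

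Of the enzymes between them, Aldh1a1 had 548 and 735 UMIs and a log2 ratio of 0.33 (0.17 to 0.50), which was 0.18 (0.02 to 0.34) after scaling by the median of ratios. Rdh10 had 307 and 384 UMIs and 0.23 (0.01 to 0.46), which became 0.08 (-0.14 to 0.30) after scaling. Rdh10 also stood at 0.0036 when likely doublets were kept. For Aldh1a2, with 40 and 59 UMIs, the interval of -0.13 to 1.09 around 0.46 includes no difference, and the value was -0.67 when cells were taken from Leiden clusters in place of the marker gate.

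Plin2 was lower in knockout stellate-like cells, by 596 against 521 UMIs, with a log2 ratio of -0.28 (-0.46 to -0.11). This direction depended on the removal of likely doublets: with them kept (260 and 252 stellate-like cells) Plin2 stood at 262 CPM in the wild type and 362 CPM in the knockout, a log2 ratio of 0.47. In the same step the summed macrophage markers in stellate-like cells went from 1369 to 1920 CPM in the wild type and from 1329 to 1954 CPM in the knockout. Their part in the Plin2 value was not tested. Dgat1 had 94 and 122 UMIs and a log2 ratio of 0.28 (-0.11 to 0.69), which includes no difference.

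**Figure D2:**
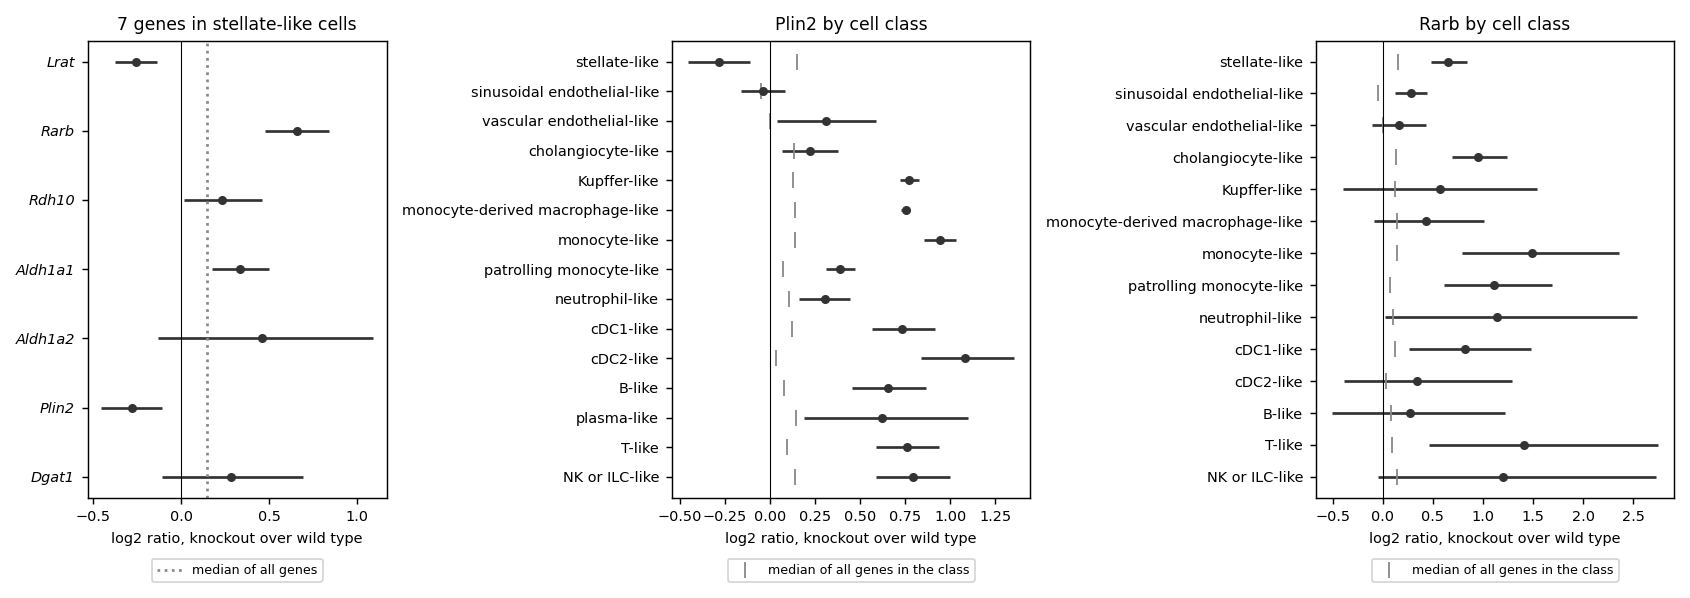
Log2 ratio of knockout over wild type with 95% counting intervals, for the 7 genes in stellate-like cells (left) and for Plin2 (middle) and Rarb (right) in each class with at least 50 cells per library and 20 UMIs of the gene. The grey marks are the median over all genes of the class. Plin2 is below 0 in stellate-like cells at -0.28 and above 0 in the myeloid and lymphoid classes. With likely doublets kept, the stellate-like value is 0.47 (not shown). Rarb is above 0 in each of the 14 classes shown, with intervals that include 0 in 6.

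Ratios between the libraries varied with gene span, in stellate-like cells and in other classes. The median log2 ratio in stellate-like cells was -0.34 for genes under 10 kb, 0.09 for 10 to 50 kb, 0.39 for 50 to 100 kb and 0.51 for over 100 kb. Against genes of like span, Rarb at 0.66 was at percentile 67.2 of 1785 genes and Aldh1a1 at 0.33 at percentile 32.3. Lrat and Plin2, of 10 to 50 kb, were at percentiles 26.4 and 24.2 of 5449 genes, and Dgat1, under 10 kb, at percentile 83.3 of 2622. These bins were chosen after the values had been seen. The part of whatever sets this trend in the ratios of the 7 genes was not tested.

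**Figure D3:**
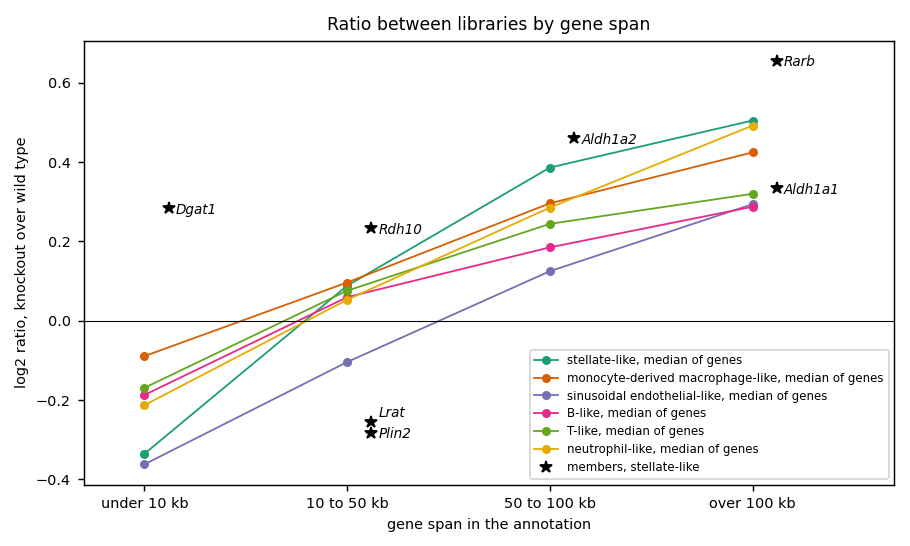
Median log2 ratio of knockout over wild type by gene span (lines, 6 cell classes) and the 7 genes in stellate-like cells (stars). The stellate-like medians go from -0.34 under 10 kb to 0.51 over 100 kb. Rarb lies above and Aldh1a1 below the median of its bin.

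Across the 15 classes with at least 50 cells in each library, Plin2 was higher in the knockout beyond counting error in 13, lower in stellate-like cells, and not resolved in sinusoidal endothelial-like cells (-0.04, -0.16 to 0.08). Among all genes of the stellate-like class, 26.1% had intervals above 0 and 14.6% below 0. Such shares were not counted for the other classes, here or for Rarb and Dgat1 below. The Plin2 log2 ratio was 0.75 (0.73 to 0.78) in monocyte-derived macrophage-like cells and 0.77 (0.72 to 0.83) in Kupffer-like cells. In these classes 6.07% and 6.18% of all genes were at least 2-fold higher in the knockout, a size that Plin2 did not reach. It did reach it in type 2 conventional dendritic-like cells (cDC2), at 141 against 301 CPM, where 6.14% of all genes were at least 2-fold higher. In B-like cells, where Plin2 was low, the log2 ratio was 0.66 (0.46 to 0.87). Over all kept cells Plin2 went from 434 CPM in the wild type to 685 CPM in the knockout. The part of free RNA in the ratios of classes with low Plin2 levels was not tested. Hepatocyte-like cells, fewer than 50 in the wild type, went the other way, from 840 to 417 CPM, with 84.2% of the wild-type UMIs in 5 cells.

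Rarb had a log2 ratio above 0 in all 14 classes where it reached 20 UMIs, and the interval lay above 0 in 8. Sinusoidal endothelial-like cells, with 457 and 1166 UMIs, had 0.28 (0.13 to 0.44), and cholangiocyte-like cells, with 159 and 376 UMIs, had 0.95 (0.69 to 1.24). In vascular endothelial-like cells it was 0.16 (-0.11 to 0.43). Patrolling monocyte-like cells had 10.8 and 23.8 CPM, a log2 ratio of 1.11, where 4.09% of all genes were at least 2-fold higher. In monocyte-derived macrophage-like, sinusoidal endothelial-like and B-like cells the Rarb ratio lay near the median of genes over 100 kb, at percentiles 50.9, 48.1 and 48.2 of such genes. In Kupffer-like cells it was at percentile 59.6, and in T-like cells, with 9 and 41 UMIs, it lay well above that median, at 1.41 against 0.32 (percentile 97.0). Of all genes in T-like cells, 4.39% were at least 2-fold higher.

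The other members moved little or unevenly across classes. Dgat1 was higher beyond counting error in 8 of 15 classes and lower in 2, T-like cells at -0.12 and plasma-like cells at -1.08. Plasma-like cells, 59 and 58 in number, had 37 wild-type and 25 knockout Dgat1 UMIs. Of the 7095 genes tested in this class, 142 were at least 2-fold lower in the knockout. Dgat1 was higher in neutrophil-like cells, where its level was highest, at 0.44 (0.36 to 0.53). Aldh1a2 had 14 and 80 UMIs in patrolling monocyte-like cells, or 3.99 and 13.4 CPM, with a log2 ratio of 1.67 (0.92 to 2.68), and 7 and 43 UMIs in monocyte-derived macrophage-like cells, with 1.83 (0.82 to 3.38). In these classes 4.09% and 6.07% of all genes were at least 2-fold higher. Aldh1a1 in hepatocyte-like cells had -0.18 (-0.37 to 0.01) and in cholangiocyte-like cells -0.06 (-0.21 to 0.08). Rdh10 was lower in patrolling monocyte-like cells, at -0.55 (-1.04 to -0.06).

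Other genes of vitamin A handling were then counted in stellate-like cells. Of 41 further retinoid genes, 22 had at least 20 UMIs. Of these, 2 were at least 2-fold higher and 1 at least 2-fold lower in the knockout, where 5.89% and 2.42% of all genes were. The list's median log2 ratio was -0.24, against 0.15 over all genes. Neither this list nor the lipid list below was matched for gene span. Over all genes of the class the median went from -0.34 under 10 kb to 0.51 over 100 kb. The part of span in the list medians and in the genes named below was not tested. Rarres2, which encodes chemerin, went from 522 to 300 CPM (-0.80, -0.93 to -0.67), Dhrs3, which reduces retinaldehyde to retinol, from 185 to 158 CPM (-0.22) and Fabp5, a fatty acid-binding protein that can carry retinoic acid, from 141 to 107 CPM (-0.40). Tgm2, a retinoic acid-inducible transglutaminase, had 204 and 226 CPM (0.15, -0.03 to 0.33).

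The retinoid genes past 2-fold had low levels. Ttr and Rbp4, which carry retinol in plasma and are made mainly by hepatocytes, went from 32.8 to 75.0 CPM and from 9.14 to 21.9 CPM. B-like cells had like values for both, at 35.8 and 70.2 CPM for Ttr and 9.52 and 19.4 CPM for Rbp4. Rdh14 had 16.2 and 7.82 CPM, with 11.8 and 11.9 in B-like cells.

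Of 33 further lipid genes, 22 had at least 20 UMIs. None was at least 2-fold higher and 2 were at least 2-fold lower, beside the same 5.89% and 2.42% of all genes. The median was 0.26, against 0.15 over all genes. G0s2, an inhibitor of the lipase ATGL, stood at 432 and 523 CPM (0.27, 0.16 to 0.39), and Lpl, lipoprotein lipase, at 416 and 429.5 CPM. Lipa, the lysosomal acid lipase, had 69.0 and 77.0 CPM. The lower genes were Fabp4, at 121 and 45.7 CPM (-1.40), and Hilpda, another inhibitor of ATGL, at 94.3 and 44.6 CPM (-1.08). B-like cells had 90.5 and 33.5 CPM of Fabp4 and 87.7 and 71.0 CPM of Hilpda.

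**Figure D4:**
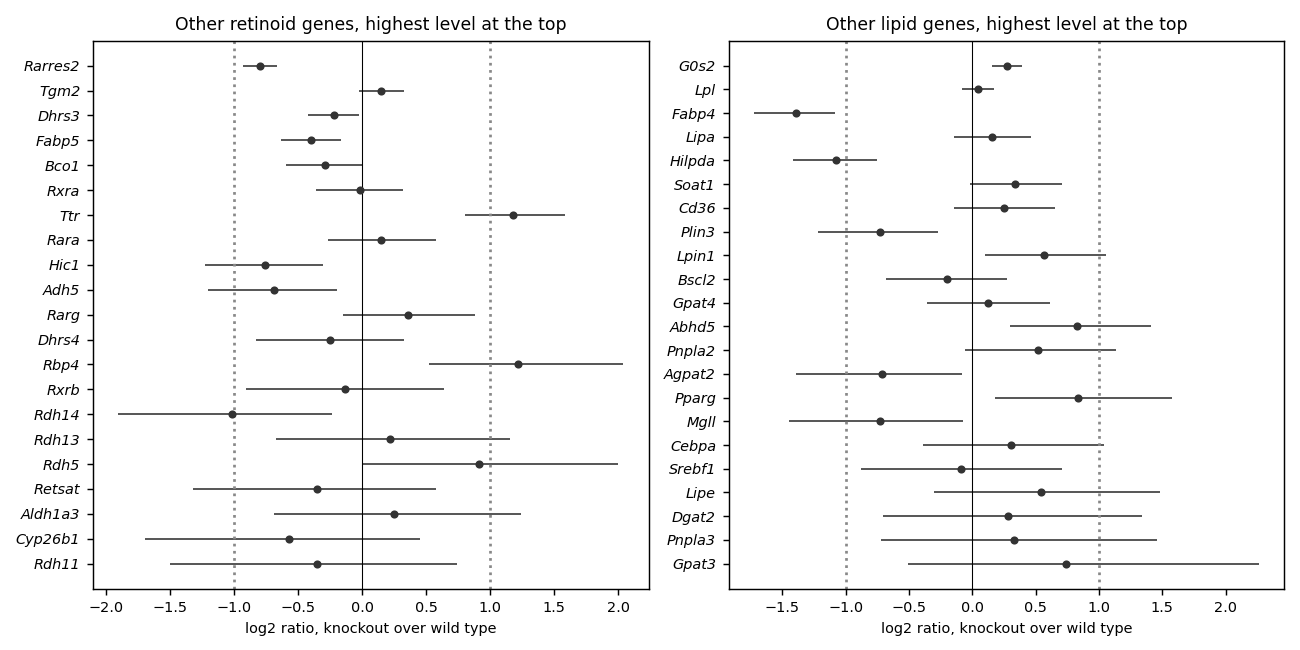
Log2 ratio of knockout over wild type in stellate-like cells, with 95% counting intervals, for further retinoid (left) and lipid (right) genes that had at least 20 UMIs, ordered by level. Dotted lines mark 2-fold. Rarres2 lies at -0.80, and Fabp4 and Hilpda lie beyond the lower line.

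To relate the 7 genes to collagen, the stellate-like cells of each library were split into 3 groups of equal number by their share of Col1a1 UMIs, and Col1a1 was left out of the totals. Median Col1a1 shares in the lower, middle and upper group were 73.8, 479 and 1285 CPM for wild-type cells and 175, 987 and 2042 CPM for knockout cells. The lower group held 32 and 22 cells without a Col1a1 UMI and was shallower, with a median depth of 8752 against 14910 UMIs in the upper group of the wild type and 9871 against 15924 in the knockout. Portal fibroblast markers increased along the split, from a sum of 109 to 627 CPM in the wild type and from 337 to 674 CPM in the knockout. The part of depth and of these markers in the values below was not tested.

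At the main setting Col3a1 and Timp1 separated along this split, while the 7 genes mostly did not. The alternative settings given below were run for the 7 genes only. Timp1, an inhibitor of matrix metalloproteinases, went from 35.1 CPM in the lower to 146 CPM in the upper group of the wild type, and from 14.9 to 109 CPM in the knockout. The log2 ratio of upper over lower group was 1.55 and 2.13 for Col3a1. Ecm1, a gene of quiescent stellate cells, had -1.10 and -0.34. Col3a1 and Ecm1 are also stellate markers of the gate. Acta2, a reference gene of the activated state, had 29.5, 22.3 and 149 CPM from lower to upper group in the wild type. In the knockout it had 9.90, 27.9 and 25.5 CPM. The Spearman correlation of Timp1 with Col1a1 was 0.29 and 0.43 over wild-type and knockout cells, and 0.08 and 0.29 after thinning. For Col3a1 it was 0.35 and 0.50 after thinning. Of all genes with at least 20 UMIs in these groups, 4.82% were at least 2-fold higher and 4.18% at least 2-fold lower in the upper group of the wild type, with 4.65% and 3.75% for the knockout. Of the 7 genes, 1 passed 2-fold in the wild type and none in the knockout. It was Aldh1a2, with 5 UMIs in the lower and 22 in the upper group and an interval of -0.20 to 2.99, and in the knockout its value was -0.75 (-1.78 to 0.28).

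Lrat was highest in the middle group of both libraries, at 489, 605 and 440 CPM from lower to upper group in the wild type and 365, 515 and 383 CPM in the knockout. Its upper over lower ratio was -0.16 (-0.38 to 0.07) and 0.07 (-0.17 to 0.32). Rarb had the same order, at 155, 207 and 146 CPM and 234, 338 and 223 CPM, with ratios of -0.09 and -0.08 whose intervals include 0. Whether either transcript was lost in cells rich in Col1a1 depended on the setting. With Leiden clusters wild-type Lrat was lower in the upper group (-0.45, -0.66 to -0.23), while knockout Lrat was higher in it when the split used Col1a2 and Col3a1 (0.80, 0.56 to 1.05) or made 2 groups (0.43, 0.25 to 0.61). Wild-type Rarb was -0.39 (-0.75 to -0.0085) on the axis of Col1a2 and Col3a1 and 0.54 (0.21 to 0.90) with likely doublets kept, a setting in which the knockout values were 0.28 (0.02 to 0.55) for Rarb and 0.19 (0.0030 to 0.38) for Lrat.

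Aldh1a1 was lower in the upper group of both libraries, from 279 to 204 CPM in the wild type (-0.46, -0.76 to -0.14) and from 348 to 276 CPM in the knockout (-0.34, -0.60 to -0.07). The knockout value was 0.04 as a mean of per-cell values and 0.19 with likely doublets kept. Plin2 was lower in the upper group of the wild type, from 258 to 186 CPM (-0.48, -0.80 to -0.15), and not resolved in the knockout, at 160 and 192 CPM (0.25, -0.10 to 0.62). The wild-type Plin2 value was -0.02 after thinning. Rdh10 was higher in the upper group of the knockout, from 112 to 188 CPM (0.73, 0.33 to 1.16), which was 0.03 after thinning, and did not separate in the wild type (0.05, -0.40 to 0.54). Dgat1 had -0.13 and 0.55, with intervals that include 0. Whether these ratios differ between the libraries was not tested.

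**Figure D5:**
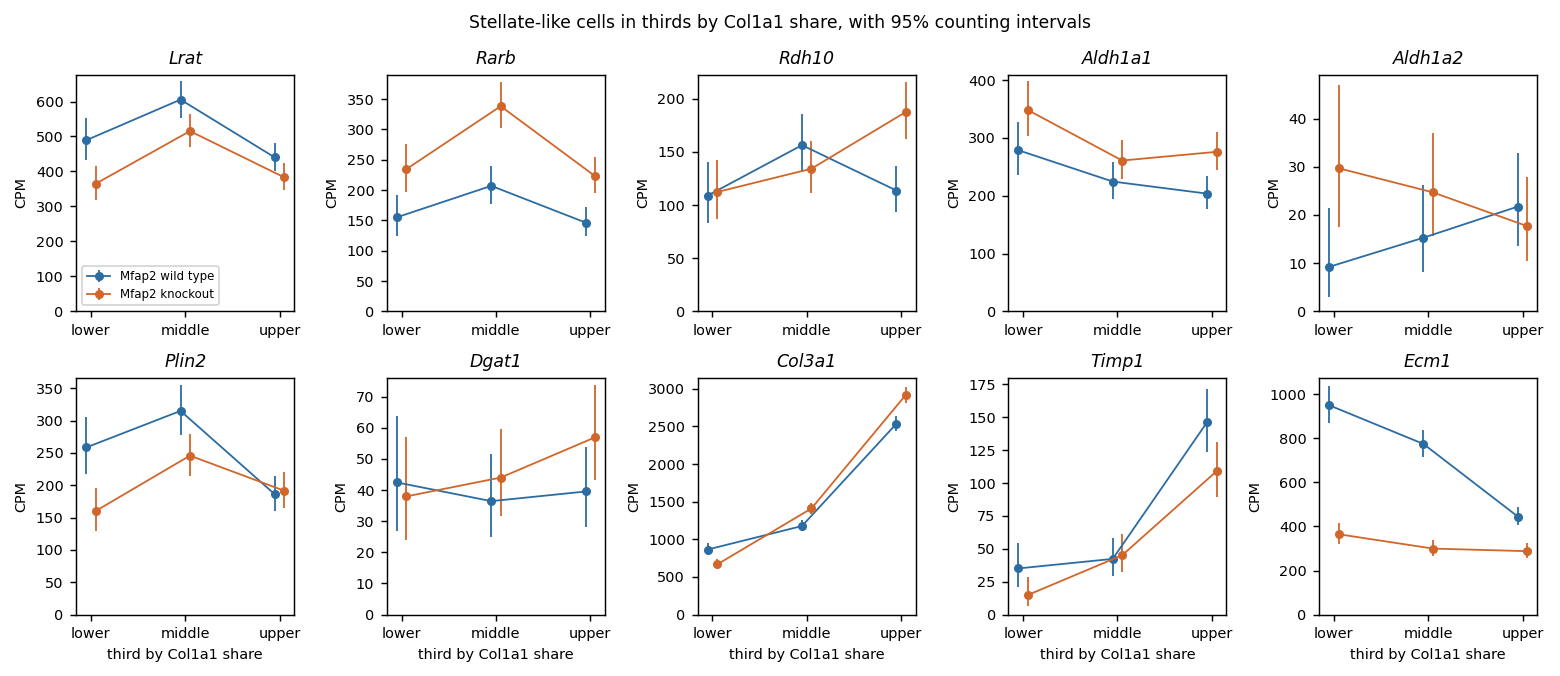
CPM in stellate-like cells split into 3 groups by Col1a1 share, for the 7 genes and for Col3a1, Timp1 and Ecm1, as wild type (blue) and knockout (orange) with 95% Poisson intervals. Col3a1 and Timp1 climb from the lower to the upper group in both libraries, whereas Lrat and Rarb are highest in the middle group.

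Genes with the most similar distribution were sought among 14309 genes by Pearson's r of log2(CPM + 1) over the 15 classes in both libraries, which gives 30 points that share libraries and depths. Lrat was most like Cxcl12, Col14a1 and Pakap (r = 0.98 for each). Rarb was most like Arhgap32 (0.95), Cyp7b1 and Ghr (0.92 each), and Aldh1a1 like Bicc1 (0.98), Pamr1 (0.98) and Ano1 (0.97). Rdh10 was most like Dennd2a (0.93), P3h3 (0.92) and Gm29683 (0.92). Plin2 was most like Tlr8, Sat1 and Ftl1-ps1 (0.91 each), Dgat1 like Acpp (0.94), Slc2a3 (0.91) and 1810006J02Rik (0.90). Aldh1a2 had the weakest matches, Ptprs (0.81), Arhgap6 (0.80) and Fosb (0.78). Col14a1 is also one of the stellate markers used to define the class.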

How the data were processed

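The authors deposited raw UMI counts per gene and cell barcode for each library. The matrix header names Cell Ranger 7.0.1, whereas the submitters' processing notes name Cell Ranger 3.1.0, Seurat and mm10. Libraries used 10x 3′ v3 chemistry, per the labels' protocols. The treatment of introns, strand and any earlier cell filter are not given in the sources used here. Of 32285 gene identifiers, 32158 (99.6%) occur in GENCODE M21, which was used for positions only.

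Barcodes under 200 genes or over 20% mitochondrial UMIs (413 and 149) were dropped. Scrublet (scanpy 1.11.5) scored doublets. The highest scores were removed at 0.8% per 1000 cells (1034 and 1295 cells), because the automatic threshold marked 7 wild-type cells (0.0616%), against 854 in the knockout. A cell took the class with the highest scaled mean of markers, given at least 3 markers with a UMI and a lead of 1.25 times over other lineages. Ungated were 14.0% and 12.4%. No cell passed as mesothelial-like. This scoring rule was set after the data had been seen, and Ttr was dropped from the hepatocyte markers because it is a retinoid gene. The members and lists were chosen with earlier results of these data known.

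UMIs were summed per class and library and scaled to CPM. Log2 ratios add 1 count. Intervals at 95% are exact Poisson, Clopper-Pearson or conditional binomial. Only the conditional binomial interval was run on simulated data. Those counts were drawn from a Poisson model, which leaves out the clumping of UMIs in a few cells, so coverage in these data was not tested. Besides the 7 genes, the text names the 5 retinoid and 5 lipid genes with the highest mean CPM, those at least 2-fold apart with 50 UMIs or more, and the 3 genes most like each member. One of the retinoid genes is counted but not reported here. The value of Rdh14 was added to account for the count. Alternatives covered doublets, filters, class assignment, scaling, thinning and rich cells.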

Additional observations from a re-analysis of the deposited data

Results flagged for a closer look

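Results are given here where the interval of the log2 ratio of knockout over wild type lay on 1 side of 0 in stellate-like cells and on the other side in another class. Only gated classes with at least 50 cells in each library and 20 UMIs of the gene were searched. Among smaller classes, Lrat was at 1.42 (0.86 to 2.06) in portal fibroblast-like and 3.22 (1.66 to 9.53) in smooth muscle-like cells. In these classes 8.24% and 17.1% of all genes were at least 2-fold higher. The 25 and 22 portal fibroblast-like cells had 35 and 83 Lrat UMIs, with 82.9% and 73.5% of them in 5 cells. The 12 and 24 smooth muscle-like cells had 1 and 54, with 83.3% of the knockout UMIs in 5 cells. Acta2 in smooth muscle-like cells went from 5569 to 1334 CPM and Reln from 27.2 to 132 CPM. The part of the make-up of this class in its Lrat value was not tested. Plin2 was at 0.82 (0.41 to 1.29) in migratory dendritic-like cells but at -1.01 (-1.23 to -0.79) in hepatocyte-like cells. Each class has 1 library per genotype, and the difference between classes was not tested. Plin2, at -0.28 in stellate-like cells, was at 0.77 in Kupffer-like, 0.75 in monocyte-derived macrophage-like, 0.94 in monocyte-like, 0.39 in patrolling monocyte-like and 0.3 in neutrophil-like cells. In dendritic-like cells it was at 0.74 (cDC1) and 1.08 (cDC2). In lymphoid classes it was at 0.66 in B-like, 0.62 in plasma-like, 0.76 in T-like and 0.79 in natural killer or innate lymphoid-like cells. The part of free RNA in these lymphoid values was not tested. Plin2 was at 0.31 in vascular endothelial-like and 0.22 in cholangiocyte-like cells. The stellate-like value has the opposite sign when likely doublets are kept (0.47). Lrat, at -0.26 in stellate-like cells, was at 1.2 in cholangiocyte-like cells, which had 14 and 41 UMIs, with 65.9% of the knockout UMIs in 5 cells and 14 of them in 1 cell. Rdh10, at 0.23 in stellate-like cells, was at -0.55 in patrolling monocyte-like cells, which had 68 and 79 UMIs, with 20 of the wild-type UMIs in 1 cell. The stellate-like interval of Rdh10 includes 0 with likely doublets kept (-0.19 to 0.20), with median-of-ratios scaling (-0.14 to 0.30), after thinning (-0.06 to 1.04) and without the 5 richest cells (-0.02 to 0.49).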

How the results depend on the processing

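No paired analysis was possible because each genotype has 1 library. Unless stated, the cause of a shift was not tested. In stellate-like cells the log2 ratio of knockout over wild type kept its direction in all 9 alternatives for Lrat, Rarb, Rdh10, Aldh1a1 and Dgat1, in 8 of 9 for Plin2 and in 8 of 9 for Aldh1a2. Some alternatives used nearly the same cells and could hardly change a direction. The same holds for adding 0.5 counts in place of 1, which left Lrat at -0.26. The gate with 4 markers kept 197 and 188 stellate-like cells and the stricter filter 190 and 183, beside 197 and 189. With likely doublets kept, Plin2 turned to 0.47, Rarb was 0.37, Rdh10 0.0036 and Aldh1a1 0.14. Scaling by the median of ratios gave -0.41 for Lrat. Thinning gave 0.48 for Rdh10 and 0.61 for Aldh1a1, Leiden clusters 0.58 for Aldh1a1 and -0.67 for Aldh1a2, and the mean of per-cell values -0.10 for Plin2. The counts of genes at least 2-fold higher and lower, 687 and 283, were 445 and 504 with median-of-ratios scaling, 2119 and 1810 with no filter and 356 and 168 with at least 50 UMIs; the last 2 pairs test more or fewer genes. The stellate-like share was 2.29% and 1.98% with doublets kept and 2.33% and 2.37% with Leiden clusters. The Lrat level stayed within 429 to 509 CPM in the wild type and 361 to 427 CPM in the knockout.

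The ratios along Col1a1 were less stable. With doublets kept they were 0.15 (Lrat), 0.54 (Rarb) in the wild type and 0.28 (Rarb), 0.19 (Aldh1a1) and -0.39 (Plin2) in the knockout. Thinning gave 0.38 (Rarb), -0.84 (Aldh1a1), -0.021 (Plin2) and 1.03 (Dgat1) in the wild type and 0.029 (Rdh10) and 2.03 (Aldh1a2) in the knockout. Means of per-cell values gave -0.23 (Lrat), 0.038 (Aldh1a1), -0.22 (Plin2) and -0.17 (Dgat1) in the knockout. Without the 5 richest cells Rarb was 0.38 in the wild type and Aldh1a2 1.254 in the knockout. Leiden clusters gave -0.45 and -0.20 for Lrat and 0.33 for Rdh10 in the knockout. Splitting on Col1a2 and Col3a1 gave -0.47 for wild-type Rdh10 and 0.80 for knockout Lrat, and a split into 2 groups gave 0.43 for knockout Lrat. Depth limits Aldh1a2 and Dgat1 most, at 40 to 122 UMIs per library in stellate-like cells.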
